A study of Homo sapiens with 24 samples.

Results

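The 10 genes described here are 9 heterogeneous nuclear ribonucleoprotein (hnRNP) genes, HNRNPA1, HNRNPA2B1, HNRNPC, HNRNPD, HNRNPDL, HNRNPH1, HNRNPK, HNRNPL and HNRNPU, together with TIA1. They were taken by name, and they account for 10 of 62754 genes, 343 of 252894 transcripts and 150 of 233113 introns in the deposited tables. The cells were RKO-iCas9, a human colon carcinoma line in which doxycycline (dox) switches on Cas9, and all of them carried a lentiviral guide RNA and received 100 ng/mL dox for 5 days. The guide was either sgERH, which targets ERH, a small conserved protein linked to splicing and RNA export, or sgAAVS1, which cuts a safe-harbour locus and served as the control. For the last 4 h the cells were given cycloheximide (CHX) at 25 µg/mL, which stops translation, or its solvent DMSO. Nuclei and cytoplasm were then separated, so that 2 guides, 2 treatments and 2 fractions made 8 groups of 3 libraries each. The cells were sorted for the guide and used as a pool rather than as 1 clone, so a group can hold cells whose ERH gene was not disrupted.

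HnRNP proteins coat nascent transcripts, and together they set which exons are joined, which messages leave the nucleus and how long those messages last. Many of their own genes hold exons or introns whose use puts a premature stop codon into the message. Such a message is a substrate of nonsense-mediated decay (NMD), which needs translation and is therefore blocked by CHX. Among the genes here, HNRNPA1 and HNRNPA2B1 bind purine-rich and UAG-like elements and often repress splice sites, HNRNPC binds uridine tracts, HNRNPD (AUF1) binds AU-rich elements of unstable messages, and HNRNPDL is its close paralogue. HNRNPH1 binds runs of G, HNRNPK binds C-rich and HNRNPL CA-rich RNA, and HNRNPU is a scaffold protein of the nucleus. TIA1 binds uridine-rich sequence behind 5′ splice sites, where it helps to recruit U1 snRNP, and is also a component of stress granules.

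Polyadenylated RNA was sequenced to between 27.8 M and 79.5 M counts a library, more in each cytoplasmic library than in any nuclear one. Mitochondrial transcripts took 3.08 to 6.84% of the counts in cytoplasm and 0.395 to 1.051% in nuclei, and in each pairing of fraction and treatment every sgERH library lay above every sgAAVS1 library. The part of this difference in the results below was not tested. ERH itself averaged 203 ± 31.5 TPM (a transcript level scaled for length and library size) in sgERH and 373 ± 29.6 TPM in sgAAVS1 cytoplasm with DMSO (SD, n = 3 each), but 63.1 ± 11.8 and 66.7 ± 3.70 TPM in sgERH and sgAAVS1 nuclei with CHX, where the groups overlapped. The level of the RNA does not measure how many alleles were disrupted. Of 7 colon epithelial markers 4 reached 1 TPM in some group (summed level 201 to 538 TPM), KRT20, CDH1 and VIL1 being at or near 0, while fibroblast markers summed to 0.0038 to 5.29 TPM and leukocyte markers, mostly CD68, to 140 to 430 TPM.

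With sgERH the RNA of HNRNPDL, TIA1 and HNRNPD fell in the nucleus. In nuclei with DMSO, HNRNPDL (chromosome 4, 82422565 to 82430462, minus strand, GRCh38) was at 369, 401 and 387 TPM in the 3 sgERH libraries and at 1215, 1074 and 1127 TPM in the 3 sgAAVS1 libraries. TIA1 (chromosome 2, 70209444 to 70248660, minus strand) was at 104, 100.2 and 108 TPM in sgERH and at 230.5, 203 and 230.4 TPM in sgAAVS1 nuclei. HNRNPD (chromosome 4, 82352498 to 82374503, minus strand) was at 339.9, 354 and 387 TPM in sgERH and at 784, 779 and 755 TPM in sgAAVS1 nuclei. For all 3 genes the groups were far apart. The count-based log2 fold changes, sgERH over sgAAVS1, were −1.41 for HNRNPDL (SE 0.08, adjusted p = 1.5e-09), −1.18 for TIA1 (SE 0.08, adjusted p = 9.8e-09) and −1.35 for HNRNPD (SE 0.10, adjusted p = 1.7e-08). These 3 of the 10 genes passed the test in the downward direction (edgeR, adjusted p of at most 0.05 and at least 2-fold), where 1.73% of all genes fell and 6.5% passed in either direction. With bulk RNA, fewer cells of a kind and less RNA per cell cannot be told apart.

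With CHX, 2 of the 10 genes fell in sgERH nuclei, where 3.68% of all genes fell and 8.96% passed in either direction. HNRNPDL was at 311, 358 and 295 TPM in sgERH and at 799.9, 760.3 and 833 TPM in sgAAVS1 nuclei (log2 fold change −1.25, SE 0.08, adjusted p = 4.6e-09). TIA1 was at 127, 115 and 159 TPM in sgERH and at 335, 325 and 357 TPM in sgAAVS1 nuclei (log2 fold change −1.34, SE 0.08, adjusted p = 2.6e-09). HNRNPD stayed just short of 2-fold at −0.99. Without nucleus sgERH CHX replicate 2, or without nucleus sgAAVS1 CHX replicate 2, 5 of the 10 genes passed.

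In the cytoplasm no member gene reached 2-fold. With DMSO 0 of 10 passed, where 11.5% of all genes did and 2.16% fell, and with CHX 0 of 10, where 7.22% did and 1.43% fell. By the adjusted p alone, 8 of 10 were lower in each. The share of all genes past that looser rule was not computed, so this count cannot be weighed. Cytoplasmic TIA1 with DMSO stood at 29.3, 34.3 and 33.9 TPM in sgERH and at 28.05, 30.7 and 26.9 TPM in sgAAVS1, which overlapped, and HNRNPDL at 273, 266 and 251 TPM in sgERH and at 386, 375 and 348 TPM in sgAAVS1. The difference between fractions was tested directly. The sgERH effect in the nucleus minus that in the cytoplasm was −1.14 for HNRNPDL (SE 0.09, adjusted p = 1.2e-07) and −1.06 for TIA1 (SE 0.09, adjusted p = 2.2e-07), and these 2 of 10 genes passed, where 3.95% of all genes did in that direction and 5.73% in either. For HNRNPD the difference was −0.74 and for HNRNPH1 −0.50, both short of 2-fold. With an offset for transcript length the value of HNRNPDL was −0.87 and no longer passed, and TIA1 was at −0.99 without cytoplasm sgAAVS1 DMSO replicate 3.

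**Figure D1:**
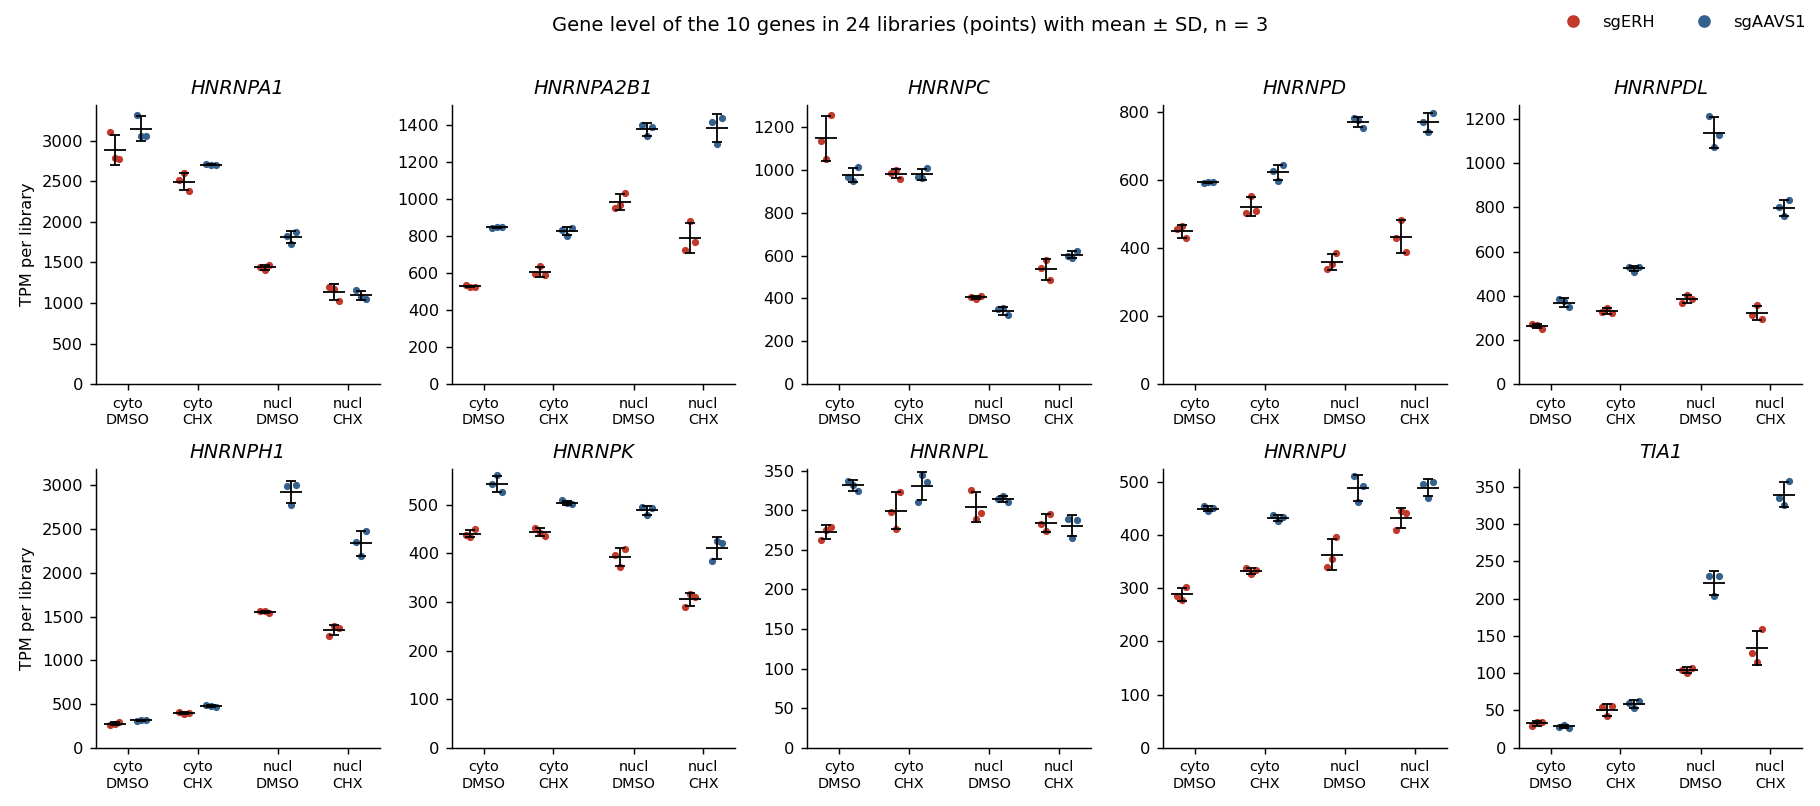
Gene level in TPM (each gene has its own linear axis) of the 10 genes in every library, by fraction and treatment, with sgERH left of sgAAVS1 in each pair, points for libraries and bars for mean ± SD (n = 3). HNRNPDL, TIA1 and HNRNPD lie lower in all 3 sgERH nuclei than in any sgAAVS1 nucleus with DMSO.

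In nuclei with DMSO the other 7 genes differed less, while in cytoplasm with DMSO HNRNPA2B1 and HNRNPU had larger changes than HNRNPD (−0.59), HNRNPDL (−0.25) and TIA1 (−0.10). HNRNPH1 (chromosome 5, 179614178 to 179634784, minus strand) was at 1559.6, 1564 and 1535 TPM in sgERH and at 2990.5, 2773 and 2998 TPM in sgAAVS1 nuclei with DMSO, with a log2 fold change of −0.99 (SE 0.06) that lay just outside the threshold. HNRNPA2B1 (chromosome 7, 26171151 to 26201529, minus strand) was at 533, 524 and 526 TPM in sgERH and at 844, 849.8 and 848 TPM in sgAAVS1 cytoplasm with DMSO. Its log2 fold change was −0.58 in nuclei and −0.89 in cytoplasm with DMSO. HNRNPU (chromosome 1, 244840638 to 244864560, minus strand) had −0.46 in nuclei and −0.82 in cytoplasm with DMSO. HNRNPK (chromosome 9, 83968083 to 83980631, minus strand) had −0.24 and −0.52, and HNRNPL (chromosome 19, 38836370 to 38852347, minus strand) −0.19 and −0.48, again in nuclei and in cytoplasm. For these 4 genes with DMSO the sgERH effect was the weaker one in the nucleus, by 0.33 for HNRNPA2B1, 0.38 for HNRNPU, 0.30 for HNRNPK and 0.31 for HNRNPL on the log2 scale. With CHX, where the difference between fractions was not tested, HNRNPA2B1 stood the other way, at −0.96 in nuclei and −0.50 in cytoplasm. HNRNPK was at −0.28 in nuclei and −0.26 in cytoplasm with CHX, HNRNPU at −0.33 in nuclei and −0.43 in cytoplasm, and HNRNPL at −0.05 in nuclei and −0.31 in cytoplasm.

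HNRNPA1 (chromosome 12, 54280193 to 54287088, plus strand) and HNRNPC (chromosome 14, 21209136 to 21269494, minus strand) have processed pseudogenes, as does HNRNPK, so their counts are uncertain. HNRNPA1 was the most abundant of the 10 in cytoplasm, with 2889.8 ± 187 TPM in sgERH and 3150.5 ± 150 TPM in sgAAVS1 with DMSO (SD, n = 3 each), and its log2 fold change was −0.62 in nuclei and −0.31 in cytoplasm. HNRNPC was at 1147 ± 103 TPM in sgERH and 977 ± 32.5 TPM in sgAAVS1 cytoplasm with DMSO, yet its log2 fold change in counts was −0.02. TPM divides counts by the lengths of the transcripts they were assigned to, so the 2 scales can differ where the transcript mix does. They can also differ without such a change, because TPM is a share within a library while the fold changes used counts normalised with TMM factors. The part of each in the gap was not tested. A ratio of the TPM values printed here therefore need not match the fold change given beside them. All 10 genes had a log2 fold change in counts below 0 in each of the 4 comparisons of sgERH with sgAAVS1, where 47.3 to 49.7% of all genes did. Their medians were −0.48 and −0.29 in cytoplasm with DMSO and with CHX and −0.60 and −0.69 in nuclei with DMSO and with CHX, and those of all genes were 0.04, 0.02, 0.03 and 0.01 in the same order. Of 21 further hnRNP and related genes, 0 passed in any of these 4 comparisons, with medians of −0.55, −0.33, −0.28 and −0.23.

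The order of the levels set the genes apart by fraction. TPM is a share within a library, so a level in nucleus and in cytoplasm is not an amount per cell. HNRNPH1, TIA1, HNRNPA2B1 and HNRNPU took their highest share in sgAAVS1 nuclei, at 2920.4 ± 128 TPM with DMSO for HNRNPH1 against 312 ± 4.32 TPM in sgAAVS1 cytoplasm, and at 339.0 ± 16.7 TPM with CHX for TIA1 against 58.4 ± 5.02 TPM in cytoplasm. HNRNPDL and HNRNPD also ranked first in sgAAVS1 nuclei with DMSO, at 1139 ± 71.1 and 772 ± 15.4 TPM, but HNRNPDL in sgERH nuclei with DMSO (386 ± 16.2 TPM) overlapped sgAAVS1 cytoplasm with DMSO (369 ± 19.5 TPM). HNRNPA1 and HNRNPC were higher in each cytoplasmic group than in each nuclear one. HNRNPL varied least, between 272 ± 8.51 and 331 ± 6.603 TPM, and each of its groups overlapped the next in that order.

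CHX alone moved none of the 10 genes past 2-fold. In sgAAVS1 cells 0 of 10 passed in cytoplasm, where 19.9% of all genes did, and 0 of 10 in nuclei, where 25.2% did. Without nucleus sgAAVS1 DMSO replicate 1 or CHX replicate 2, 1 gene passed in nuclei. The largest nuclear values were 0.97 for HNRNPC and −0.91 for HNRNPA1. Of the 21 further genes, HNRNPA0 (−1.38), HNRNPAB (−1.10) and PTBP2 (1.78) changed in cytoplasm and PCBP1 (−1.03) in nuclei. The sgERH effect with CHX minus that with DMSO passed for 0 of 10 genes in cytoplasm (3.63% of all genes) and for 0 of 10 in nuclei (3.62%).

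The exons held by the HNRNPDL message changed as well. Exon 6 is a cassette of 171 bases, a multiple of 3, that encodes part of the glycine- and tyrosine-rich tail of the protein. Inclusion was computed from reads that span splice junctions, as the mean of the reads joining the exon to its neighbours over that mean plus the reads that skip it. These cassette measurements were chosen after the data had been seen and are given as descriptions. Of 14 cassettes with all their junctions in the table, 8 varied (5% or more in some group and 95% or less in some group). The exons below are in capitals with 20 bases of each flanking intron in lower case, 5′ to 3′ on the minus strand of GRCh38. They lie at chr4:82426463-82426633 (HNRNPDL exon 6), chr4:82356537-82356683 (HNRNPD exon 7), chr2:70229059-70229091 (TIA1 exon 5) and chr4:82427433-82427564 (HNRNPDL exon 4, described further on).
HNRNPDL exon 6: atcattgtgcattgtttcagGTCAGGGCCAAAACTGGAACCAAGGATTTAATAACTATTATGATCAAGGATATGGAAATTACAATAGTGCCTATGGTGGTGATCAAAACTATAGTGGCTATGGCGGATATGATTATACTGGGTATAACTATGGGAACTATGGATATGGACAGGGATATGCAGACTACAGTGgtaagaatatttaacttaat
HNRNPD exon 7: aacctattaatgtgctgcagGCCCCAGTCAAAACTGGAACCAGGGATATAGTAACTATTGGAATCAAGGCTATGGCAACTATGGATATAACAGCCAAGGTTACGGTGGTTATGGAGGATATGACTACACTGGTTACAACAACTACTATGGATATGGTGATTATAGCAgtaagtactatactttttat
TIA1 exon 5: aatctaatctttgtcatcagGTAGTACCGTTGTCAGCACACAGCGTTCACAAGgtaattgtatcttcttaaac
HNRNPDL exon 4: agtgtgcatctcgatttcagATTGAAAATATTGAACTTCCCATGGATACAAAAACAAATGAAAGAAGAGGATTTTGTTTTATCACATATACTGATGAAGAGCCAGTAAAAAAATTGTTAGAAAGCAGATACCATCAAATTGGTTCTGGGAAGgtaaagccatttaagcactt

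By junction reads, HNRNPDL exon 6 was skipped more often than it was included in sgERH cells. In cytoplasm with DMSO it was included at 10.5, 10.1 and 10.6% in sgERH and at 91.4, 91.2 and 91.0% in sgAAVS1 cells, a difference of −80.8 points. Nuclei with DMSO gave 20.1, 17.8 and 17.4% in sgERH and 92.5, 92.5 and 92.3% in sgAAVS1 cells, a difference of −74.0 points. The groups were apart in both fractions, and the exact two-sided permutation test gave p = 0.1, the smallest value that 3 against 3 allows. These shares rested on a mean of 515 inclusion and 4429 skipping reads a library in sgERH and 4450 and 429 in sgAAVS1 cytoplasm with DMSO. With CHX inclusion was 13.9 ± 2.28% in sgERH and 65.1 ± 1.08% in sgAAVS1 cytoplasm, and 10.5 ± 0.593% in sgERH and 49.9 ± 0.668% in sgAAVS1 nuclei (SD, n = 3 each). In sgAAVS1 cells CHX itself thus went with lower inclusion of the exon, by 26.1 points in cytoplasm and 42.5 points in nuclei, again with the groups apart (exact permutation p = 0.1).

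The deposited transcript counts carried the same direction with a smaller size. HNRNPDL-207, the 1 annotated transcript of the gene that lacks exon 6, took 47.1, 47.8 and 45.7% of the gene's counts in sgERH and 8.64, 9.85 and 11.1% in sgAAVS1 cytoplasm with DMSO (difference 37.0 points, adjusted p = 2.6e-11). With CHX in cytoplasm it took 46.4, 42.6 and 45.0% in sgERH and 16.9, 16.8 and 17.6% in sgAAVS1 cells (27.6 points, adjusted p = 2.0e-05). In nuclei with DMSO it took 25.8, 27.3 and 25.6% in sgERH and 7.74, 7.33 and 9.21% in sgAAVS1 cells (18.1 points, adjusted p = 0.0088). In nuclei with CHX it took 28.9, 28.3 and 33.0% in sgERH and 18.04, 17.9 and 17.9% in sgAAVS1 cells and was not called (12.1 points, adjusted p = 0.63), although the groups did not overlap. The other 9 transcripts, all of which hold exon 6, together kept 53.2 ± 1.03% in sgERH and 90.1 ± 1.21% in sgAAVS1 cytoplasm with DMSO (SD, n = 3 each). The junction reads and the transcript estimates thus gave different sizes, and the source of the gap was not tested. In nuclei with DMSO the call of HNRNPDL-207 was lost without sgERH DMSO replicate 1 or 2 or sgAAVS1 DMSO replicate 1 or 2, at differences of 17.6 to 18.3 points. HNRNPDL-208, which holds exon 6, was at 0.133, 0.179 and 0.135% in sgERH and at 5.72, 5.89 and 6.06% in sgAAVS1 cytoplasm with DMSO. HNRNPDL-202, an NMD transcript with an added exon near the 3′ end, was at 2.68, 3.79 and 3.37% in sgERH and at 9.58, 8.47 and 8.65% in sgAAVS1 cells there.

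HNRNPD exon 7 is the counterpart of this exon in the paralogue, and it distinguishes the longer AUF1 isoforms. Aligned end to end, HNRNPDL exon 6 and HNRNPD exon 7 shared 63.7% of bases and a run of 14 identical bases. The other 20 pairs among the 7 exons printed in this text shared 17.5 to 54.5% and runs of at most 7. The percentage counts all alignment columns, so exons of very unlike length cannot score high. Of pairs closer in length, HNRNPDL exon 4 and HNRNPD exon 7 shared 52.9%, and HNRNPDL exon 6 and HNRNPH1 exon 5 50.6%. HNRNPD exon 7 was included at 17.1, 15.2 and 17.6% in sgERH and at 38.3, 38.2 and 37.6% in sgAAVS1 cytoplasm with DMSO, and at 18.4, 17.9 and 19.2% in sgERH and 33.4, 35.6 and 36.1% in sgAAVS1 nuclei with DMSO. The differences were −21.4 and −16.5 points with the groups apart (exact permutation p = 0.1 each), and with CHX they were −18.6 points in cytoplasm and −11.7 points in nuclei. Transcripts that hold the exon took 32.2 ± 3.801% of HNRNPD counts in sgERH and 43.5 ± 0.689% in sgAAVS1 cytoplasm with DMSO. HNRNPD-214, 1 of these, fell to 0.209, 0.673 and 0.463% in sgERH, against 8.89, 6.91 and 8.01% in sgAAVS1 cells. By contrast HNRNPD exon 2 (57 bases), the other cassette of the gene, was at 91.3% in sgERH and 90.0% in sgAAVS1 cytoplasm with DMSO, where the groups overlapped.

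TIA1 exon 5, a 33-base cassette that distinguishes 2 isoforms of the protein, followed the same direction on fewer reads. It was included at 29.1, 27.6 and 29.4% in sgERH and at 45.6, 40.4 and 40.9% in sgAAVS1 cytoplasm with DMSO (−13.6 points, groups apart, exact permutation p = 0.1). In nuclei with DMSO the values were 21.01, 25.4 and 38.4% in sgERH and 45.2, 55.7 and 51.9% in sgAAVS1 cells, from a mean of 53.3 inclusion and 129 skipping reads in sgERH libraries. In nuclei with CHX the groups overlapped (32.2 ± 8.79% in sgERH and 43.1 ± 15.9% in sgAAVS1, exact permutation p = 0.6).

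**Figure D2:**
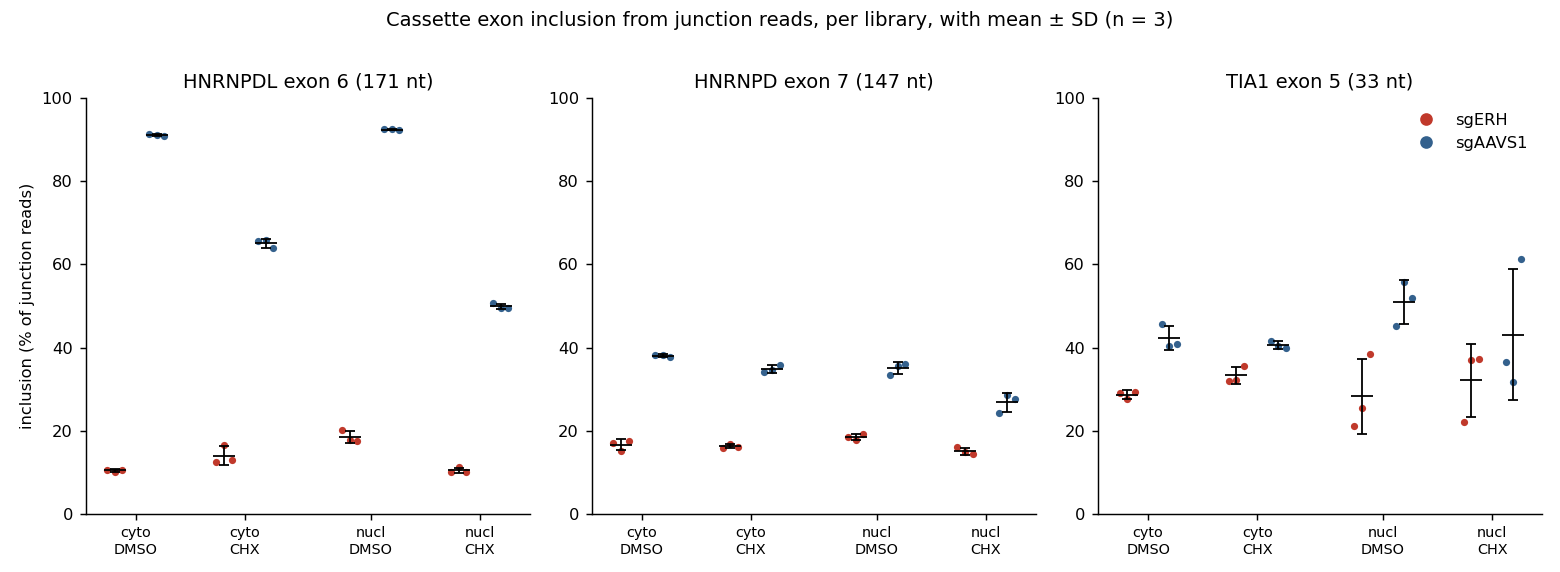
Inclusion of the HNRNPDL, HNRNPD and TIA1 cassette exons in percent of junction reads, by fraction and treatment, sgERH left of sgAAVS1 in each pair, with 1 point per library and bars for mean ± SD (n = 3). HNRNPDL exon 6 lies near 10 to 20% in every sgERH group, while in sgAAVS1 it lies above 90% with DMSO and at 49.9 to 65.1% with CHX.

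Exon 4 of HNRNPDL, 132 bases long and also a multiple of 3, showed a further difference. Of the reads that entered exon 5 at the acceptor of intron 4, 18.1, 17.9 and 19.01% came from somewhere other than exon 4 in sgERH cytoplasm with DMSO, against 0.463, 0.305 and 0.388% in sgAAVS1 cytoplasm. Of the reads that left exon 3 at the donor of intron 3, 14.5, 13.6 and 13.97% went elsewhere than to exon 4 in sgERH and 0.402, 0.267 and 0.343% in sgAAVS1 cytoplasm. In nuclei with DMSO the share at the acceptor was 12.01 ± 2.28% in sgERH and 0.184 ± 0.0792% in sgAAVS1 cells (SD, n = 3 each), and with CHX it was 17.5 ± 0.826% in sgERH and 0.605 ± 0.378% in sgAAVS1 cells. Every sgERH library exceeded every sgAAVS1 library in all 4 settings at both sites. Junction sites were kept for a difference of at least 5 points, so this separation partly follows from the choice and is a description. The partner of these reads was not analysed here. No inclusion level was computed for exon 4.

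Intron retention (IR) was read from the IRFinder tables. Their IR ratio is the depth of the intron over the sum of that depth and the spliced reads at the end of the intron with more of them, and it runs between 0 and 1. Changes are given as log2 fold changes in the odds of retention, and an intron was called at an adjusted p of at most 0.05, at least 2-fold and a mean IR ratio of 0.05 or more in the group with more retention. In sgERH nuclei with DMSO, 9 of 148 tested introns of the 10 genes rose, where 1.21% of all introns did, and 14 fell, where 3.44% did (4.64% in either direction). The 9 lay in HNRNPDL and TIA1 alone. The median over all introns tested was −0.37 and that of the 148 was −0.55, so the introns that rose moved against the bulk of both sets. Of the 86 introns of canonical transcripts that were tested in nuclei, 7 rose and 8 fell.

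The introns that rose in HNRNPDL were introns 2, 3 and 4, side by side between exons 2 and 5. Intron 3 (chr4:82427565-82428017, 453 bases) had IR ratios of 0.143, 0.145 and 0.170 in sgERH and of 0.0433, 0.0427 and 0.0503 in sgAAVS1 nuclei with DMSO (log2 fold change 1.92, SE 0.15, adjusted p = 3.7e-06). Intron 4 (chr4:82427305-82427432, 128 bases) had 0.125, 0.146 and 0.161 in sgERH and 0.0400, 0.0473 and 0.0519 in sgAAVS1 nuclei (1.79, SE 0.16, adjusted p = 8.1e-06). Intron 2 (chr4:82428180-82428277, 98 bases) had 0.0964, 0.0924 and 0.0865 in sgERH and 0.0263, 0.0257 and 0.0203 in sgAAVS1 nuclei (2.03, SE 0.20, adjusted p = 1.9e-05). In each case the lowest sgERH library lay well above the highest sgAAVS1 library. Read in the frame of the upstream exon, the first stop codon would come 81 bases into intron 2, and 27 bases into each of introns 3 and 4. The 2 short introns, and the shortest of the introns that rose in TIA1, are printed 5′ to 3′ on the minus strand of GRCh38 with the first 2 and last 2 bases in capitals.
HNRNPDL intron 2: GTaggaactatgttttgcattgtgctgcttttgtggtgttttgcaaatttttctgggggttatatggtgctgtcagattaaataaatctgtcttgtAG
HNRNPDL intron 4: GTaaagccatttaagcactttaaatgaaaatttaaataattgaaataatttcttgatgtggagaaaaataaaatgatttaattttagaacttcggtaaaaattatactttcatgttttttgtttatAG
TIA1 intron 9: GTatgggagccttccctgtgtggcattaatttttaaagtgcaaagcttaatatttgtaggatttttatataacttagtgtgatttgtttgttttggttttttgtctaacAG

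Intron 1 of HNRNPDL stood at 0.179 ± 0.0156 in sgERH and 0.101 ± 0.00811 in sgAAVS1 nuclei with DMSO and was not called (log2 fold change 0.95). Introns 5 and 6 flank the skipped exon 6, and there the result depended on which spliced reads were set against the intron depth. Against all reads spliced at the busier end, which include those that skip exon 6, the log2 fold changes were 0.08 and −0.28 and neither was called. Against the reads that splice exactly that intron they were 2.34 and 2.13 and both rose. With CHX the same 2 introns fell in sgERH nuclei by 2.00 and 2.03 on the log2 scale (IR ratio 0.0924 ± 0.0124 in sgERH and 0.288 ± 0.0117 in sgAAVS1 for intron 5), but stood at 0.18 and 0.30, not called, against exact reads. Introns 3 and 4 rose with CHX as well (1.27 and 1.30), while intron 2 stood at 0.64 and did not pass.

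**Figure D3:**
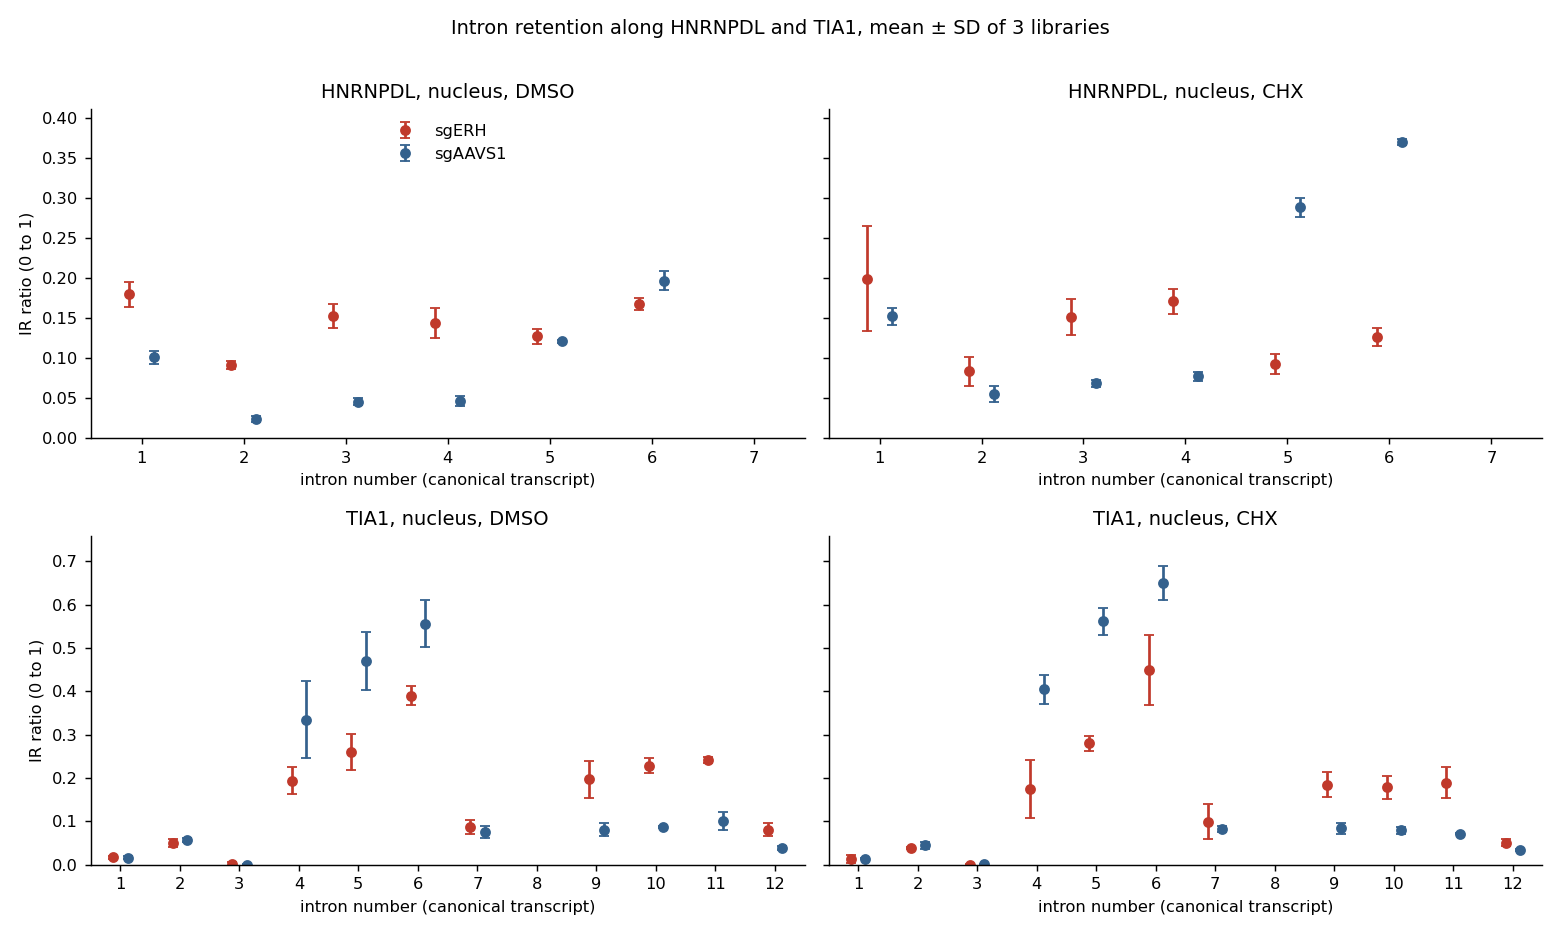
IR ratio (0 to 1) by intron number, 5′ to 3′, for HNRNPDL and TIA1 in nuclei with DMSO and with CHX, sgERH left of sgAAVS1, as mean ± SD of 3 libraries. Introns 3 and 4 of HNRNPDL and 9 to 11 of TIA1 have higher means in sgERH in both panels, introns 5 and 6 of HNRNPDL lower ones with CHX, and introns 4 to 6 of TIA1 lower ones in both.

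TIA1 split into a 3′ stretch that was more retained and a middle stretch that was less so. Intron 10 (chr2:70215495-70216207, 713 bases) had IR ratios of 0.214, 0.226 and 0.247 in sgERH and 0.0899, 0.0871 and 0.0850 in sgAAVS1 nuclei with DMSO (log2 fold change 1.64, SE 0.20, adjusted p = 1.4e-04). Intron 11 (chr2:70214495-70215370, 876 bases) had 0.239, 0.236 and 0.249 in sgERH and 0.122, 0.0832 and 0.0970 in sgAAVS1 nuclei (1.504, SE 0.21, adjusted p = 5.2e-04). Intron 9 (chr2:70216293-70216403, 111 bases) had 0.245, 0.161 and 0.187 in sgERH and 0.0638, 0.0914 and 0.0882 in sgAAVS1 nuclei (1.47, SE 0.25, adjusted p = 0.0024). The groups did not overlap at any of the 3. The first in-frame stop would come 29 bases into intron 9, 4 into intron 10 and 60 into intron 11. Intron 12, the last, also rose (1.14), at 0.97 without nucleus sgERH DMSO replicate 2. With CHX, introns 9, 10 and 11 again rose in sgERH nuclei, by 1.31, 1.33 and 1.59.

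In the middle of TIA1, intron 5, which follows the cassette exon 5, fell to 0.306, 0.226 and 0.247 in sgERH nuclei with DMSO, against 0.548, 0.429 and 0.433 in sgAAVS1 nuclei (log2 fold change −1.36, SE 0.25). Against exact spliced reads it was −1.32 and was no longer called. Introns 4 and 6 stood at 0.194 ± 0.0310 and 0.390 ± 0.0213 in sgERH and at 0.335 ± 0.0885 and 0.556 ± 0.0541 in sgAAVS1 nuclei with DMSO (−1.06 and −0.97) and were not called. With CHX all 3 fell, by 1.68, 1.72 and 1.21 for introns 4, 5 and 6. Intron 4 was at −1.22 and not called against exact reads, and intron 6 at −0.92 without nucleus sgERH CHX replicate 2. Introns beyond 4 in a gene were named after their values were seen.

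TIA1 introns 9 and 10 were the only member introns called as higher in the cytoplasmic fraction. Of 120 member introns tested with DMSO, 2 rose, close to the share of all introns (1.49%), and 0 fell, where 0.394% did (1.88% in either direction). The median log2 fold change was 0.48 over all introns tested and 0.42 over the 120. Nuclear RNAs were also higher in sgERH than in sgAAVS1 cytoplasm with DMSO. MALAT1 averaged 217 and 131 TPM, NEAT1 101 and 40.3 TPM, and KCNQ1OT1 0.313 and 0.0319 TPM. The part of nuclear RNA in these retention values was not tested. Intron 9 was at 0.0806, 0.0611 and 0.0870 in sgERH and at 0.00767, 0.00683 and 0.00455 in sgAAVS1 cytoplasm (log2 fold change 3.54, SE 0.35, adjusted p = 4.5e-05). Intron 10 was at 0.0733, 0.0672 and 0.0465 in sgERH and at 0.00515, 0.00807 and 0.00380 in sgAAVS1 cytoplasm (3.41, SE 0.34, adjusted p = 4.8e-05). Neither reached a mean IR ratio of 0.1. HNRNPDL introns 2, 3 and 4 stayed below 0.003 in every cytoplasmic library with DMSO. With CHX, 0 of the 120 introns passed in cytoplasm (0.897% of all introns did), and TIA1 intron 9 was at 0.0378 ± 0.00802 in sgERH and 0.0150 ± 0.00586 in sgAAVS1 cells (SD, n = 3 each).

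The introns that fell in sgERH nuclei with DMSO belonged to 6 genes. Intron 10 of HNRNPA1 (chr12:54284318-54284548, 231 bases), near the 3′ end of the gene, fell to 0.273, 0.309 and 0.308 in sgERH, against 0.538, 0.5004 and 0.512 in sgAAVS1 nuclei (log2 fold change −1.34, SE 0.17, adjusted p = 2.0e-04). In HNRNPK introns 5, 11, 12 and 13 fell (−1.09, −1.09, −1.04 and −1.04), and intron 13 had an IR ratio of 0.192 ± 0.0106 in sgERH and 0.328 ± 0.0303 in sgAAVS1 nuclei (SD, n = 3 each). In HNRNPU introns 2 and 12 fell (−1.50 and −1.32), with 0.0418 ± 0.000860 in sgERH and 0.0982 ± 0.00689 in sgAAVS1 nuclei for intron 12. HNRNPA2B1 had 1 intron that fell (−1.19), and HNRNPC had 4 partly overlapping ones near its 5′ end (−1.19 to −1.29). Against exact spliced reads none of these 4 HNRNPC introns was called as lower, and chr14:21234230-21234768 turned to 1.48. The remaining 2 were intron 5 of TIA1 and 1 that overlaps it. Among canonical introns, those that rose had a median length of 453 bases and a GC content of 36.7%, those that fell 337.5 bases and 36.4%, and the 71 not called 491 bases and 35.9%.

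With CHX the fall was far broader. In sgERH nuclei 48 of 148 introns of all 10 genes fell, where 19.7% of all introns did, and 6, in HNRNPDL and TIA1, rose, where 0.746% did (20.4% in either direction). The median was −0.88 for the 148 and −0.94 for all introns, so changes are to be read against a shift of nearly 2-fold that the whole table shared. HNRNPA1 held 13 and HNRNPC 11 of those that fell, many of them overlapping. Against exact spliced reads HNRNPA1 chr12:54283968-54284239 turned to 3.28 and HNRNPC chr14:21234230-21234768 to 0.22. Intron 5 of HNRNPH1 (chr5:179618324-179619268, 945 bases) was at 0.636, 0.606 and 0.662 in sgERH and at 0.831, 0.808 and 0.814 in sgAAVS1 nuclei with CHX (−1.37, SE 0.13). In HNRNPL introns 3, 5, 6 and 7 fell (−2.39, −1.38, −1.16 and −1.02). Against exact spliced reads 34 introns passed here in place of 54.

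**Figure D4:**
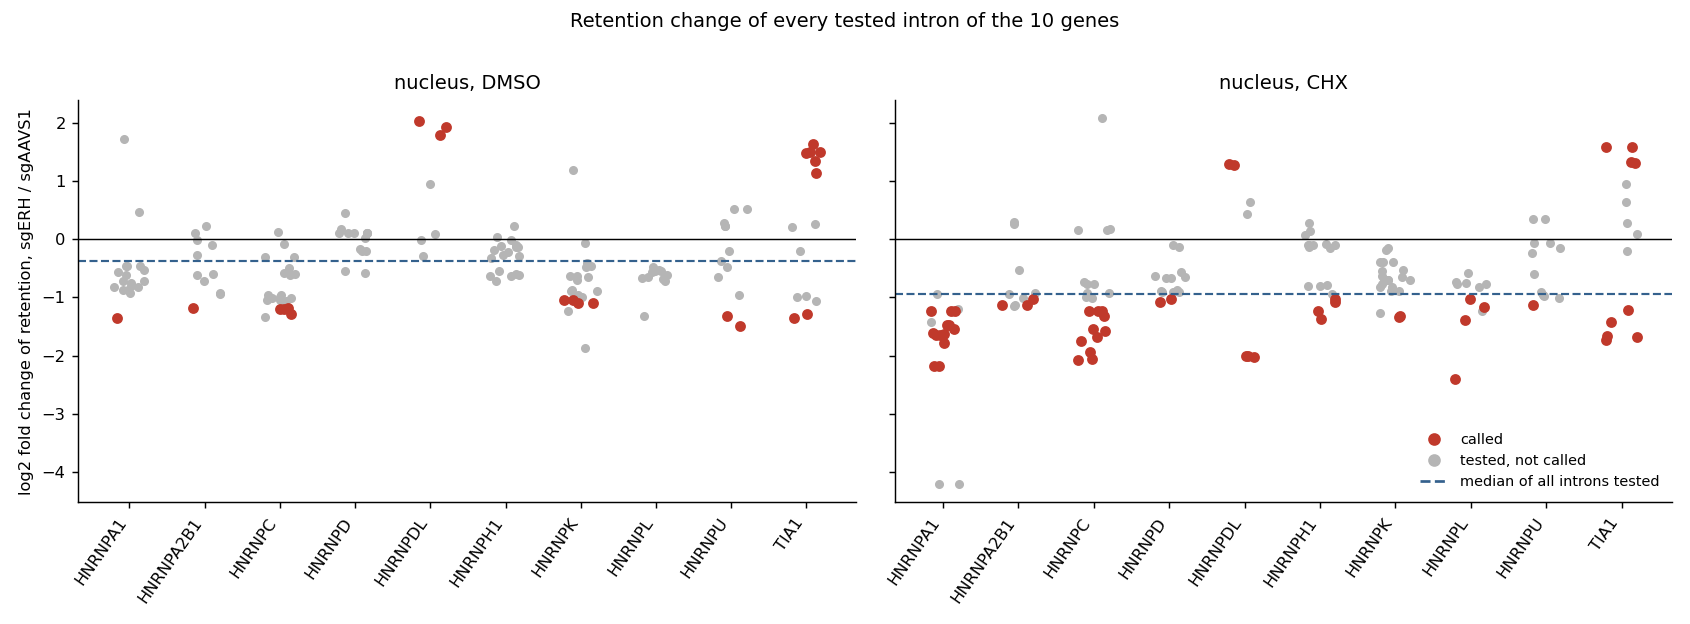
Log2 fold change in the odds of retention, sgERH over sgAAVS1, of every tested intron of the 10 genes in nuclei with DMSO and with CHX, where red points were called, grey points were not, and the dashed line is the median of all introns tested. In both panels the called introns above 0 belong to HNRNPDL and TIA1, and that median lies at −0.37 with DMSO and at −0.94 with CHX.

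With CHX the share of NMD transcripts was higher in some members and not in others. In sgAAVS1 cytoplasm 10 of 205 tested transcripts of the 10 genes changed their share with CHX, where 1.13% of all transcripts did. The rule was an adjusted p of at most 0.05 and at least 5 points. Of the 10, 8 rose, and among these HNRNPC-203 (11.6 points) and HNRNPDL-207 (7.23 points) are annotated as protein coding. Without any 1 of the 6 libraries 8 passed. HNRNPH1-215 was at 22.6, 19.5 and 18.7% of HNRNPH1 counts with CHX and at 0.262, 0.372 and 0.172% with DMSO (difference 19.99 points, adjusted p = 2.2e-52). HNRNPH1-217 and HNRNPH1-218 rose by 6.35 and 13.6 points, and all 3 skip exon 5. HNRNPK-207, which skips exon 6, was at 9.78, 10.4 and 12.01% with CHX and at 0.397, 0.522 and 0.592% with DMSO (10.2 points). HNRNPL-202, which gains exon 7, was at 8.19, 8.75 and 9.42% with CHX and at 0.453, 0.419 and 0.797% with DMSO (8.23 points). HNRNPDL-202 was at 32.6, 33.7 and 31.1% with CHX and at 9.58, 8.47 and 8.65% with DMSO (23.6 points). The lengths of HNRNPH1 exon 5 (139 bases) and HNRNPK exon 6 (44 bases) are not multiples of 3, so a skip shifts the frame, and exon 7 of HNRNPL-202 carries a stop codon. These exons lie at chr5:179619269-179619407, chr9:83975462-83975505 and chr19:38841613-38841682, all on the minus strand. The first 2 are printed in capitals between 20 lower-case bases of intron, and HNRNPL exon 7 in lower case up to its stop codon in capitals.
HNRNPH1 exon 5: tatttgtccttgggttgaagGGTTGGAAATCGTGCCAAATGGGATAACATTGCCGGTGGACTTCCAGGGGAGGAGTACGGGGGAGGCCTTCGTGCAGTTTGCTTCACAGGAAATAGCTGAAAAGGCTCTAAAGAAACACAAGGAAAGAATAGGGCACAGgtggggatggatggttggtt
HNRNPK exon 6: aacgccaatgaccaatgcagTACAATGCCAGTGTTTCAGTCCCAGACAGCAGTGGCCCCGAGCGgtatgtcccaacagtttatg
HNRNPL exon 7: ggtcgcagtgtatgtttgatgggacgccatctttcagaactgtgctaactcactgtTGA

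Junction reads do not depend on the assignment to transcripts. Of the reads entering HNRNPH1 exon 6 at the acceptor of intron 5, 58.2 ± 1.55% came from elsewhere than exon 5 with CHX and 4.42 ± 0.926% with DMSO in sgAAVS1 cytoplasm (SD, n = 3 each). At the acceptor of HNRNPK intron 6 the share was 12.1 ± 0.536% with CHX and 0.351 ± 0.0940% with DMSO, and at that of HNRNPL intron 6 8.04 ± 0.438% and 0.464 ± 0.191%, with every CHX library above every DMSO library at the 3 sites. These sites too were kept for a difference of at least 5 points, so the values are descriptions. In sgERH cytoplasm with CHX the HNRNPH1 share was 45.4 ± 2.18%, against 58.2 ± 1.55% in sgAAVS1, and the HNRNPK share 6.68 ± 1.34%, against 12.1 ± 0.536%, with every sgERH library below every sgAAVS1 library. For HNRNPL the libraries ran the other way, at 9.57 ± 1.49% in sgERH and 8.04 ± 0.438% in sgAAVS1 cells, all 3 above. In nuclei the HNRNPH1 share was already 42.4 ± 0.336% in sgERH and 45.5 ± 2.07% in sgAAVS1 cells with DMSO.

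Summed over all transcripts annotated as NMD, HNRNPH1 held 41.5% in sgERH and 52.3% in sgAAVS1 cytoplasm with CHX, and 12.5% and 11.9% with DMSO. HNRNPDL held 18.2% in sgERH and 32.7% in sgAAVS1 with CHX, and 3.3% and 8.9% with DMSO. HNRNPK held 7.0% and 11.6% with CHX, and HNRNPL 9.9% and 8.8%, in the same order of guides. In sgAAVS1 cytoplasm HNRNPD held 8.8% with CHX and 3.5% with DMSO, and TIA1 1.8% and 0.6%. There HNRNPA1 held 36.3% with CHX and 35.4% with DMSO, and HNRNPA2B1 66.7% and 65.4%. HNRNPU held less with CHX (25.7%) than with DMSO (31.6%), and HNRNPC 0.1% and 0.2%. The sgERH effect with CHX minus that with DMSO was tested per transcript and passed for 0 of 205 in cytoplasm, where 0.271% of all transcripts did, and for 0 of 217 in nuclei, where 0.39% did. Limma called 4 in cytoplasm.

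**Figure D5:**
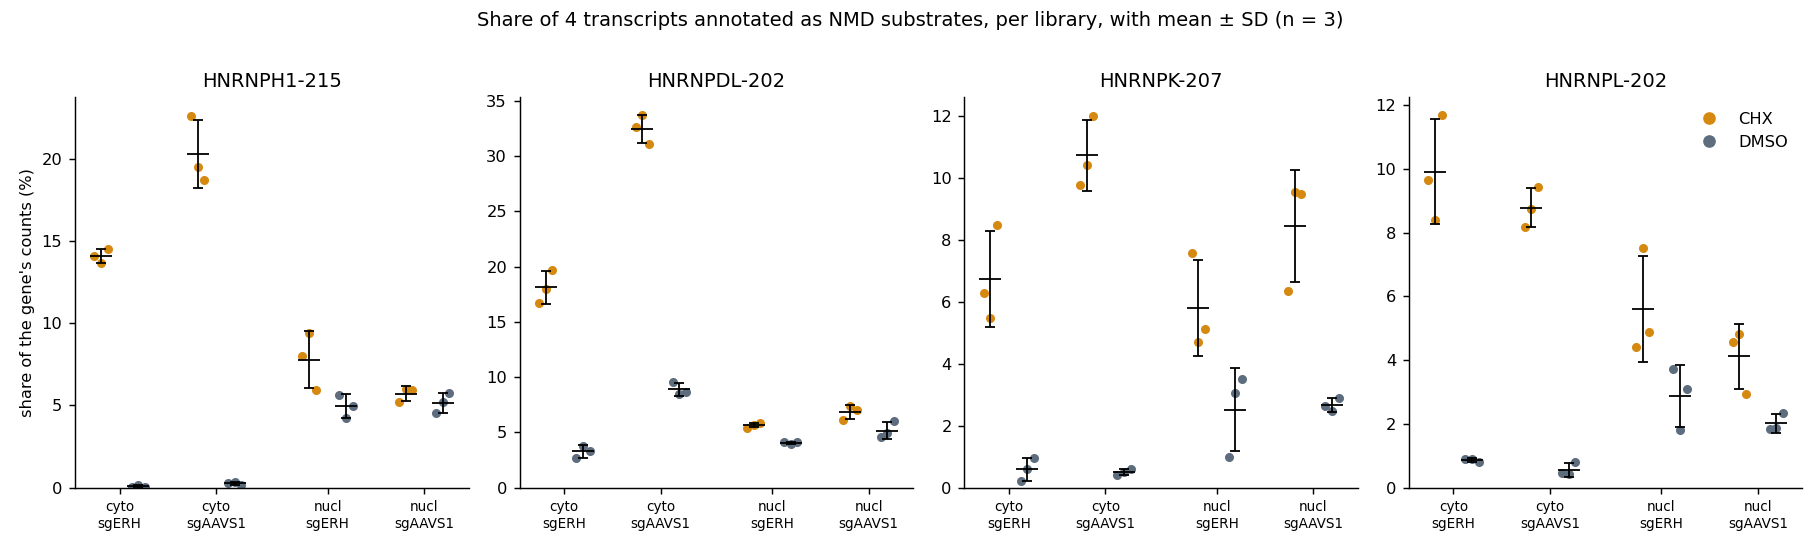
Share of the gene's counts, in percent, of HNRNPH1-215, HNRNPDL-202, HNRNPK-207 and HNRNPL-202 by fraction and guide, CHX left of DMSO in each pair, with 1 point per library and bars for mean ± SD (n = 3). In cytoplasm every CHX library lies above every DMSO library for both guides, and HNRNPH1-215 in sgAAVS1 cytoplasm lies at 18.7 to 22.6% with CHX.

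The number of transcripts called between sgERH and sgAAVS1 depended on the tool. With edgeR, in cytoplasm 4 of 205 passed with DMSO (0.618% of all transcripts) and 2 with CHX (0.354%), all in HNRNPDL and HNRNPD and described above except HNRNPD-214 with CHX, which fell by 6.33 points. In nuclei 5 of 217 passed with DMSO (0.433%) and 3 with CHX (0.65%), and all of these rose. Limma on the same transcripts called 12 and 6 in cytoplasm with DMSO and with CHX, and 16 and 17 in nuclei, where 8 of the 16 and 8 of the 17 fell. With edgeR in nuclei, HNRNPA1-201, HNRNPA1-205 and HNRNPA1-250 passed both with DMSO and with CHX, and HNRNPDL-207 and HNRNPA2B1-227 with DMSO only. HNRNPA1-205, an NMD transcript, was at 11.6, 10.5 and 9.87% in sgERH and at 3.42, 4.06 and 4.23% in sgAAVS1 nuclei with DMSO (6.75 points, adjusted p = 0.0032, lost without nucleus sgAAVS1 DMSO replicate 1, which left 3 transcripts). HNRNPA1-250 was at 9.44, 18.5 and 11.1% in sgERH and at 1.30, 3.03 and 1.29% in sgAAVS1 nuclei with CHX (11.1 points), and 5 transcripts passed there without nucleus sgAAVS1 CHX replicate 2. HNRNPA1 has 84 annotated transcripts, of which 33 had any count, so the split among them is an estimate. HNRNPA2B1-227, also NMD, was at 7.41, 8.09 and 12.3% in sgERH nuclei with DMSO, against 0, 0 and 2.11% in sgAAVS1 nuclei.

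CHX also changed the nuclear RNA of control cells. In sgAAVS1 nuclei 6 of 217 transcripts changed share (0.823% of all transcripts did), and 3 did without sgAAVS1 DMSO replicate 1 or 2 or CHX replicate 2 or 3, while limma called 13. HNRNPC-203, which starts at an upstream exon, was at 45.8, 45.1 and 42.6% of HNRNPC counts with CHX and at 21.7, 18.01 and 23.1% with DMSO. The 168-base 5′ exon of HNRNPC at chr14:21262601-21262768 was included in 49.7 ± 5.18% of junction reads with CHX and 12.7 ± 0.255% with DMSO in sgAAVS1 nuclei, and with CHX in 25.9 ± 4.62% in sgERH nuclei (SD, n = 3 each). By junction reads it was a cassette, but HNRNPC-203 begins with a longer form of it, so inclusion and use as a first exon cannot be told apart. Of the introns, 21 rose and 3 fell with CHX in sgAAVS1 nuclei, where 5.57% and 4.69% of all introns did (10.3% in either direction). HNRNPC alone held 10 of the 21 outside its canonical transcript and 1 within it, so the count is not spread evenly over genes. Among introns of canonical transcripts 9 rose and 2 fell. Outside HNRNPC, those that rose included HNRNPDL introns 5, 6 and 2 (1.56, 1.26 and 1.22) and HNRNPD intron 3 (1.48). HNRNPH1 introns 2 and 3 (1.37 and 1.00), HNRNPK intron 6 (1.21) and HNRNPU intron 2 (1.30) rose as well, while HNRNPH1 introns 7 and 9 fell (−1.12 and −1.17). In cytoplasm 1 rose and 1 fell, where 0.938% and 1.57% of all introns did (2.51% in either direction). HNRNPC chr14:21262769-21263310 rose by 3.90 and HNRNPA1 chr12:54286733-54286952 fell by 3.64. Against exact spliced reads the HNRNPC intron stood at −1.01. The sgERH effect on retention with CHX minus that with DMSO passed for 1 of 120 introns in cytoplasm (0.00812% of all introns) and for 5 of 148 in nuclei (0.311%), 4 of the 5 in HNRNPDL and 1 in HNRNPH1.

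Between nucleus and cytoplasm the share of member introns that differed was close to that of all introns. In sgAAVS1 cells with DMSO 91 of 148 member introns were more retained in the nucleus and 0 less, where 60.6% and 0.0666% of all introns were (60.7% in either direction), and 61 of 218 member transcripts of 9 genes differed in share, where 20.7% of all transcripts did. HNRNPH1 intron 5 stood at 0.774, 0.796 and 0.780 in nuclei and at 0.0366, 0.0476 and 0.0461 in cytoplasm. Transcripts annotated as retaining an intron took 81.0% of HNRNPH1 and 70.9% of HNRNPL counts in sgAAVS1 nuclei with DMSO, against 5.3% and 1.1% in sgAAVS1 cytoplasm. In sgERH nuclei they took 73.4% and 55.2%.

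Across the 8 group means of log2 CPM, each centred within its fraction, the genes most like HNRNPDL of 8779 compared were ZNF121 (Pearson r = 0.979), MRRF (0.976) and HNRNPH1 (0.975). TIA1 ran closest to SRGAP2 (0.985), WSB1 (0.983) and STX17 (0.978), and HNRNPH1 to CAPRIN2 (0.985), EZH2 (0.983) and TROAP (0.982). For HNRNPD they were SPDL1, ZYG11B and ARHGAP44 (0.975, 0.974 and 0.973). For the other 6 genes the closest were MAPK9 for HNRNPA1, PRKDC for HNRNPA2B1, SENP2 for HNRNPC, IDH3G for HNRNPK, NDUFV1 for HNRNPL and H2AZ1 for HNRNPU (0.983 to 0.997). These are descriptions over 8 points that share libraries, and were picked as the highest of all genes compared.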

How the data were processed

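The 10 genes, and the lists, tests and cassettes described here, were chosen with earlier results of these data known. The authors deposited estimated counts and TPM per transcript, and IRFinder tables per library with intron depth (a coverage signal), counts of spliced reads and the IR ratio (a fraction). Per the study's methods, reads were trimmed with fastp, aligned with STAR to GRCh38 and quantified with salmon in nf-core/rnaseq, and introns were read with IRFinder-S. The submitters' notes name fastp 0.23.4, SAMtools 1.16.1 and bedtools 2.30.0. Transcript lengths from the deposited tables entered only the alternative with a length offset. Whether counting used the strand is not given in the sources used here.

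Transcript counts were summed per gene, rounded, filtered with filterByExpr (minimum 10), normalised with TMM factors and compared by quasi-likelihood F tests in edgeR 4.0.16 under R 4.3.3. Transcript shares were tested with diffSpliceDGE, with the same filter. Introns were tested with a quasi-likelihood interaction of group and read type, with at least 10 depth plus spliced reads and a depth of 1 on average in some group. Each model held the 12 libraries of 1 fraction, or the 12 DMSO libraries where fractions were compared, with Benjamini-Hochberg adjustment over all features in each of 9 comparisons. Thresholds were an adjusted p of 0.05 with an absolute log2 fold change of 1 for genes and introns (IR ratio 0.05) and 5 points for transcripts. A cassette was compared with an exact two-sided permutation test. Scripts were tested on simulated data.

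Of 343 member transcripts 281 had counts. Intron and exon numbers come from GENCODE v44. Of the introns of canonical transcripts 23, spread over all the genes, were not tested in nuclei. HNRNPDL intron 7, TIA1 introns 3 (below the filter) and 8, and HNRNPL introns 4, 8, 9, 10 and 11 were among them. The lack of a call there says nothing about retention. Named transcripts had a share of 5% in some group or a call, and named introns a call or an IR ratio of 0.1, up to 4 a gene by size of change. The labels give the 3 libraries of a group as biological replicates. Alternatives were DESeq2 1.42.0, RLE scaling, no filter, the length offset, limma 3.58.1, stricter minima, exact spliced reads, a replicate block and each library left out. Precision is set by 3 libraries a group and by the read numbers given.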

Additional observations from a re-analysis of the deposited data

Results flagged for a closer look

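The sgERH effect on gene level differed between nucleus and cytoplasm with DMSO, by the test of the difference, for HNRNPDL (−1.14, SE 0.09, adjusted p = 1.2e-07) and TIA1 (−1.06, SE 0.09, adjusted p = 2.2e-07). For 6 introns the sgERH effect on retention with CHX differed from that with DMSO. In cytoplasm this was HNRNPC chr14:21262769-21263310 (−1.75, SE 0.21, adjusted p = 0.021). In nuclei these were HNRNPDL chr4:82426130-82426462 (−1.74), chr4:82426130-82427189 (−1.99) and chr4:82426634-82427189 (−2.08), which overlap around exon 6, HNRNPDL chr4:82428180-82428277 (−1.39, adjusted p = 0.044) and HNRNPH1 chr5:179621036-179621241 (−1.13, adjusted p = 0.047). The share of all introns past this test was 0.00812% in cytoplasm and 0.311% in nuclei. Against exact spliced reads the first and the last of the 3 around exon 6 kept their calls (−1.83 and −2.16), while the longest, chr4:82426130-82427189, and the HNRNPC intron changed sign (0.59 and 0.63), and HNRNPDL chr4:82428180-82428277 and the HNRNPH1 intron were no longer called (−1.38 and −1.14).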

How the results depend on the processing

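Single calls were less stable than their totals. There were 148 calls of genes, transcripts and introns, leaving aside nucleus against cytoplasm in sgAAVS1 cells. Of these calls 49 were kept in every alternative, including each library left out. Counts of member calls are given with each alternative, the value with the main settings in brackets. Genes: the transcript length offset gave 1 (2) for the nucleus minus cytoplasm difference. Transcripts at 10 points: sgERH against sgAAVS1 1 (4) in cytoplasm with DMSO, 1 (2) with CHX, 1 (5) in nuclei with DMSO, and 40 (61) for nucleus against cytoplasm. Transcripts with limma: 12 (4), 6 (2), 16 (5) and 17 (3) in cytoplasm with DMSO, with CHX, nuclei with DMSO and with CHX, 13 (6) for CHX in nuclei and 4 (0) for the CHX difference in cytoplasm. A minimum count of 50 gave 7 (3) in nuclei with CHX and 2 (0) for the CHX difference in cytoplasm. Introns at an IR ratio of 0.1: 0 (2) in cytoplasm with DMSO, 1 (2) for CHX in cytoplasm, 15 (23) in nuclei with DMSO and 56 (91) for nucleus against cytoplasm. Introns with exact spliced reads: 34 (54) in nuclei with CHX, 1 (2) for CHX in cytoplasm, 0 (1) and 2 (5) for the CHX difference in cytoplasm and nuclei.

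Exact spliced reads reversed 10 intron values. HNRNPC chr14:21262769-21263310 gave −1.01 for CHX in cytoplasm and 0.63 for the CHX difference. HNRNPC chr14:21234230-21234768 gave 1.48 in sgERH nuclei with DMSO and 0.22 with CHX, and chr14:21234230-21262600 gave −0.41 for CHX in nuclei. HNRNPDL gave 0.30 for chr4:82426130-82426462 and 0.18 for chr4:82426634-82427189 in sgERH nuclei with CHX, and for chr4:82426130-82427189 −1.21 for CHX in nuclei and 0.59 for the CHX difference. HNRNPA1 chr12:54283968-54284239 gave 3.28 in sgERH nuclei with CHX. The construction of the alternative, another count of spliced reads, is the only change.

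Leaving out 1 library at a time gave 3 to 4 genes in sgERH nuclei with DMSO, 2 to 5 with CHX, 0 to 1 for CHX in nuclei and 1 to 2 for the difference between fractions. It gave 3 to 6 transcripts in sgERH nuclei with DMSO, 2 to 5 with CHX, 3 to 4 for CHX in nuclei, 0 to 1 for each CHX difference and 56 to 59 between fractions, and 4, 2 and 8 throughout in cytoplasm. It gave 18 to 25 introns in sgERH nuclei with DMSO, 41 to 61 with CHX, 23 to 26 for CHX in nuclei, 3 to 5 for the CHX difference there, 1 to 2 for CHX in cytoplasm, 0 to 1 for its CHX difference, 89 to 91 between fractions, and 2 and 0 throughout for sgERH in cytoplasm. The main tests did not pair libraries by replicate number. Within a fraction, same-numbered deviations had a median correlation of 0.049 in cytoplasm (7 of 18 pairs over 0.1) and 0.046 in nuclei (6 of 18). Differently numbered ones had −0.031 (5 of 36) and −0.021 (6 of 36), so same-numbered pairs ran somewhat higher. Pairing of nuclear with cytoplasmic libraries was not checked, and the tests between fractions treated them as unpaired. With the replicate block 1 (0) transcript passed for the CHX difference in cytoplasm and 3 (5) introns for that in nuclei. DESeq2 and RLE scaling called 4 genes in sgERH nuclei with DMSO, adding HNRNPH1. Depth limits TIA1 exon 5 in nuclei most, and 3 libraries a group limit the exact tests.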
